A study of Saccharomyces cerevisiae with 5 samples.

Results

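The 18S rRNA region is the stretch of the budding yeast rDNA repeat that codes for the RNA of the small ribosomal subunit. Its members are all nucleotides that the deposited files assign to 18S, which are 1800 of the 9137 nt of the repeat and 1800 of the 6858 nt of the 35S gene. They lie on chromosome XII from 465070 to 466869, bounds that equal those of RDN18-2 in the RefSeq gene table, and are transcribed toward the lower coordinates. Nucleotides are numbered here from 1 to 1800 from the 5′ end of 18S. Native elongating transcript sequencing (NET-seq) counted RNA 3′ ends at each nucleotide in 3 WT libraries and 2 libraries of the genotype rpa190-f1205h, called the mutant below. In both groups RNA polymerase I was captured through RPA135, its second-largest subunit, which carried a C-terminal HA and His tag, from cells grown in YEPD. Rpa190 is the largest and catalytic subunit, and the substitution lies in its trigger loop. The labels do not say whether the libraries of a group came from separate cultures, so that p-values measure only the spread between these libraries, which may be technical. The column that names the sample says WT in both mutant files too, and RPA190 was not measured, so the genotype rests on the sample labels. These conflict over the residue: the genotype label of both mutant samples gives F1205H and their titles give F105H.

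RNA polymerase I transcribes the 35S precursor, in which 18S is the first of the mature rRNAs, behind the 5′ external transcribed spacer (5′ ETS). The precursor is cut on either side of 18S, and the last cut, at the 3′ end of 18S, is made late, in the cytoplasm. NET-seq is meant to record the last nucleotide that each engaged polymerase had added, while finished rRNA that comes along in the precipitate adds ends at its mature 3′ terminus. The trigger loop closes over the active site during nucleotide addition, and the growing RNA is held to the template by a short RNA-DNA hybrid.

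The sense strand of 18S held 103626, 96173 and 101054 ends in WT, against 480864 and 75298 in the mutant. Its nucleotides had a median of 34, 30 and 34 counts in WT, against 175.5 and 29 in the mutant. Unless stated otherwise, a share is a percentage of the sense 3′ ends of 18S without its last 5 nt, over totals of 95424, 88160 and 92136 in WT, against 462938 and 72921 in the mutant. Where a library has no count, the share can still be as high as 0.00314%, 0.00340% and 0.00326% in WT, against 6.48e-04% and 0.00411% in the mutant (3 counts of the total, counting error only).

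The stretches around 8 of the 20 positions named below for their size of change are shown first, because the last base and the G and C before it are counted in later results. They are the 3 largest rises, the 3 largest falls and a smaller change of each kind (nt 1280 and nt 1026), picked after their values were seen. Each runs 5′ to 3′ in RNA letters as the files give them, from the minus strand of chromosome XII in the files' coordinates, and the capital marks the position itself, the last base of the RNA. The first 4 positions were higher in the mutant, and the other 4 were lower.
nt 652, chrXII:466208-466228: ggcccgguugGccgguccgau
nt 1119, chrXII:465741-465761: ggggaguaugGucgcaaggcu
nt 1115, chrXII:465745-465765: cuggggggagUauggucgcaa
nt 1280, chrXII:465580-465600: ggugcauggcCguucuuaguu
nt 1023, chrXII:465837-465857: agucuuaaccAuaaacuaugc
nt 271, chrXII:466589-466609: uucgaaucgcAuggccuugug
nt 931, chrXII:465929-465949: ugaagacuaaCuacugcgaaa
nt 1026, chrXII:465834-465854: cuuaaccauaAacuaugccga

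The last 40 nt of 18S (chrXII:465070-465109) are shown because they hold both the mature 3′ end and a stretch that was nearly empty in WT. The capitals mark the last 5 nt, which were kept apart in most measures.
18S 3′ end: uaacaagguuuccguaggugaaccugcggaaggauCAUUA

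The mature 3′ end took a smaller part of the 18S signal in the mutant. The last 5 nt held 7.92%, 8.33% and 8.82% of all 18S ends in the WT libraries, against 3.73% and 3.16% in the mutant libraries. The groups did not overlap (8.36% ± 0.455 against 3.44% ± 0.404, SD, n = 3 and n = 2). Nearly all of this was the last nucleotide, nt 1800, which alone held 8.10% ± 0.421 and 3.12% ± 0.346. It fell by 1.45 ± 0.224 (log2 fold change, approximate SE) relative to the rest of 18S (adjusted p = 3.06e-06, edgeR). With 3 libraries against 2 there are 10 splits, so the two-sided exact permutation p cannot go below 0.2. That value was reached by the shares of the mature end, of the parts of 18S and of the bases, and by the measures of unevenness and pause counts, unless another p is given. An adjusted p over a family is given only where it differs. Shares of single positions were tested by edgeR alone.

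Within the last 5 nt the positions did not move alike. At nt 1796, a C, the shares were 0.0231%, 0.0159% and 0.0304% in WT, against 0.0933% and 0.0658% in the mutant, and the position rose by 1.83 ± 0.270 (adjusted p = 1.59e-06, edgeR). The next nucleotide, nt 1797, rose by 1.305 ± 0.319 (adjusted p = 8.03e-04), and nt 1798 fell by 0.90 ± 0.232 (adjusted p = 0.00129). At nt 1799 the log2 fold change was 0.33 ± 0.220 and the groups overlapped (adjusted p = 0.182, edgeR). Of the last 5 nt, 2 thus rose, 2 fell and 1 was not called.

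As a part of the whole gene, 18S held 19.9%, 21.6% and 21.7% of the sense 35S signal in WT, against 25.8% and 24.99% in the mutant (exact permutation p = 0.2, adjusted p = 0.4 over both measures). Without the last 5 nt of 18S, 5.8S and 25S, the ends of which took a larger part of the WT signal, 18S held 28.1%, 29.6% and 29.2% in WT, against 28.8% and 28.4% in the mutant. The groups then overlapped, and the difference was -0.368 percentage points (28.6% ± 0.320 against 28.95% ± 0.739, exact permutation p = 0.6).

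Without the last 5 nt, the first 2 of 4 parts of 18S held less of the signal in the mutant and the last 2 held more. Of these 4 parts of 450 nt, the first held 27.5% ± 1.09 of the ends in WT and 25.7% ± 0.306 in the mutant, and the second 29.2% ± 0.276 and 25.8% ± 0.725. The third held 26.8% ± 0.812 and 28.5% ± 0.657, and the fourth, without the last 5 nt, 16.5% ± 0.461 and 20.1% ± 1.08. In none of the 4 did the groups overlap. This depended on leaving out the last 5 nt. With them, the difference was -0.462 percentage points in place of -1.88 in the first part (exact permutation p = 1) and -1.83 in place of -3.38 in the second. It was 2.89 in place of 1.63 in the third and -0.603 in place of 3.63 in the fourth (exact permutation p = 0.8).

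**Figure D1:**
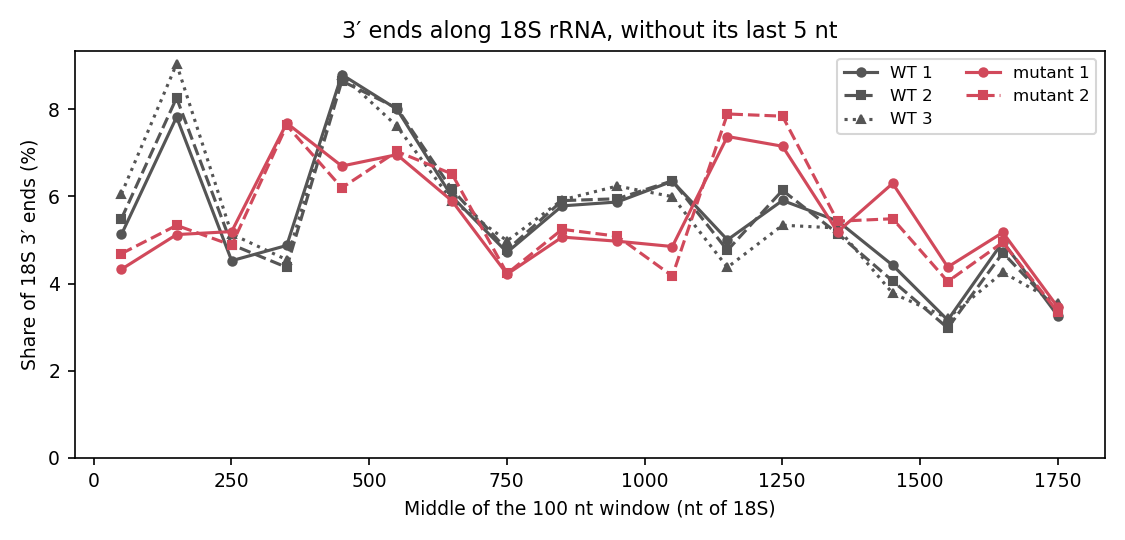
Share of 18S 3′ ends in each window of 100 nt (vertical axis, percent) against the middle of the window in nt of 18S (horizontal axis), 1 line per library, grey for WT and red for the mutant, without the last 5 nt. The 2 mutant lines lie above all WT lines in the window from nt 301 (7.66% against 4.60%) and in that from nt 1101 (7.63% against 4.71%), and below them in the window from nt 101 (5.23% against 8.37%).

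In windows of 100 nt, 5 of the 18 windows of 18S rose and 8 fell, beside 40.6% of the 69 windows of the 35S gene in each direction and 81.2% in either (edgeR's quasi-likelihood test, adjusted p below 0.05). The changes here and below are relative to the 18S total without the last 5 nt. With the 35S total as the scale, 9 rose and 2 fell. The window from nt 301 to 400 held 4.87%, 4.37% and 4.55% of the 18S ends in WT, against 7.68% and 7.63% in the mutant. It rose by 0.74 ± 0.0839 (adjusted p = 2.55e-15). The window from nt 1101 to 1200 rose by 0.69 ± 0.0840 and that from nt 1401 to 1500 by 0.53 ± 0.0827. These rises were larger than the spread between libraries of either genotype.

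The windows that fell most were the last one (nt 1701 to 1800, -0.84 ± 0.0921), that from nt 101 to 200 (-0.68 ± 0.0886) and that from nt 1001 to 1100 (-0.46 ± 0.0855). The fall of the last window was that of the mature end, since its log2 fold change was 0.00341 ± 0.0855 without the last 5 nt (adjusted p = 0.968, edgeR). The window from nt 101 to 200 held 7.82%, 8.26% and 9.04% of the 18S ends in WT, against 5.12% and 5.34% in the mutant. Every one of the 18 windows held at least 14 positions that rose and at least 12 that fell, so that a window's change was the balance of changes in both directions.

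The 3 windows that rose most had G at 31%, 36% and 31% of their nucleotides, and the window from nt 101 to 200 had G at 16%. Over the 18 windows, without the last 5 nt, Pearson's r between the percentage of G and the log2 ratio of shares was 0.782 (Spearman's rho 0.731). When only 3′ ends at A, C and U were counted, r was 0.712 and rho 0.621. The window from nt 301 then held 6.41% ± 0.0958 of the ends that are not at G in the mutant and 4.28% ± 0.272 in WT, and that from nt 1101 held 6.70% ± 0.139 and 4.32% ± 0.283. These are descriptions across neighbouring windows of the same libraries, with no test.

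At single nucleotides, 562 positions of 18S rose and 578 fell among the 1716 that passed the filter on low counts, which left 84 untested (edgeR's quasi-likelihood test, adjusted p below 0.05 over 5873 tested positions of the 35S gene). Over the gene 36.9% of tested positions rose and 31.6% fell, and in 18S 32.8% rose and 33.7% fell, shares near those of the gene. The median log2 fold change was -0.09 in 18S and 0.10 over the gene. Scaled to the 35S total, 721 rose and 384 fell, which made higher positions 65.2% of the calls in place of 49.3%. The libraries did not overlap between genotypes at 1267 of the 1716 positions, beside 76.4% of the tested positions of the gene.

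The profile within 18S was shared by libraries of one genotype and much less between genotypes. Spearman's rho over 1795 nucleotides was 0.952 to 0.963 among WT libraries and 0.921 between the mutant libraries, and 0.469 to 0.531 across the genotypes. These values run across positions, which share a library and a sequence, and are given as a description.

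**Figure D2:**
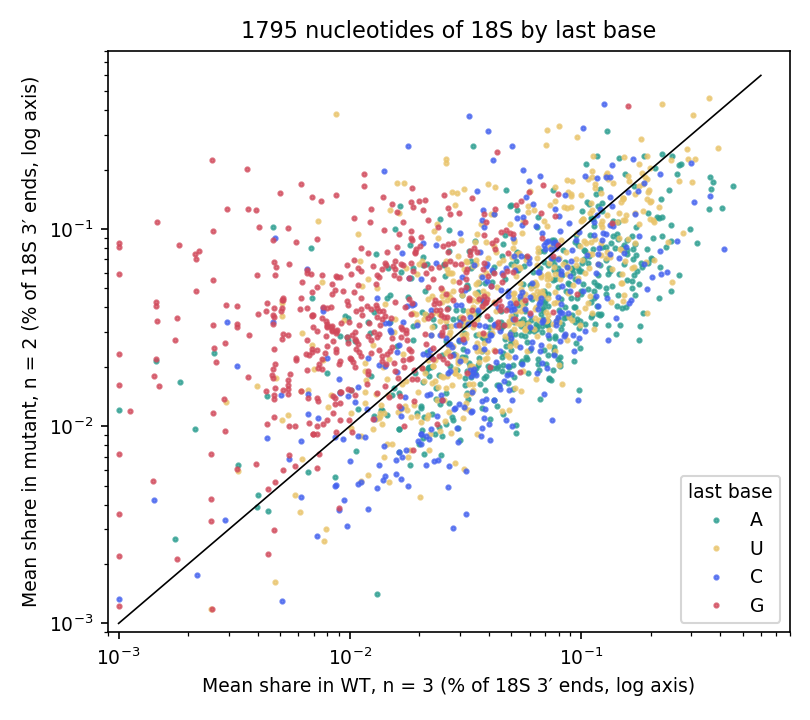
Mean share of each of 1795 nucleotides of 18S in WT (horizontal, n = 3) and in the mutant (vertical, n = 2), in percent of 18S 3′ ends on log axes, coloured by the base of the nucleotide, with values below 0.001% drawn at 0.001% and the line of equal shares in black. Most G positions lie above the line (310 of 417 tested rose) and most A positions below it (269 of 471 tested fell).

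The positions named next had a mean share of at least 0.1% and libraries that did not overlap, which left 63 that rose and 110 that fell. Without these conditions 560 rose and 576 fell outside the last 5 nt, so the excess of falls came with the conditions. No matching count over the gene is given. The largest rise was at nt 652, a G, with 4, 3 and 0 counts in WT, against 940 and 176 in the mutant. These are shares of 0.00253% ± 0.00223 and 0.222% ± 0.0271, a log2 fold change of 6.40 ± 0.377 (adjusted p = 1.19e-12, edgeR). With a library left out the log2 fold change at nt 652 was 5.83 to 6.99. One WT library had no count there. That both mutant libraries lay above all WT libraries was a condition for naming the position.

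The next in size lay close together, just behind a run of G. At nt 1115, a U, the counts were 8, 9 and 7 in WT, against 1633 and 303 in the mutant, which are shares of 0.00838%, 0.0102% and 0.00760% against 0.353% and 0.416%. The position rose by 5.44 ± 0.281 (adjusted p = 9.60e-14, edgeR) and was the fifth highest of 18S in the mutant. At nt 1119, a G, the counts were 6, 3 and 1 in WT, against 728 and 178 in the mutant, a rise of 5.73 ± 0.363, which was 6.43 without WT library 1. Both mutant libraries were above all 3 WT libraries at each of these positions, again by the way they were picked.

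Next in size were nt 389 (G, log2 fold change 4.01 ± 0.282), nt 1274 (C, 3.88 ± 0.262), nt 294 (C, 3.79 ± 0.269) and nt 1280 (C, 3.51 ± 0.243). At nt 1280 the shares were 0.0419%, 0.0284% and 0.0282% in WT, against 0.402% and 0.344% in the mutant. The last 3 of the 10 were nt 1272 (U, 3.12 ± 0.239), nt 1283 (U, 3.05 ± 0.235) and nt 654 (C, 2.98 ± 0.227). The 10 positions fell partly into groups, with nt 1272, 1274, 1280 and 1283 within one stretch and nt 652 and 654 in another.

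**Figure D3:**
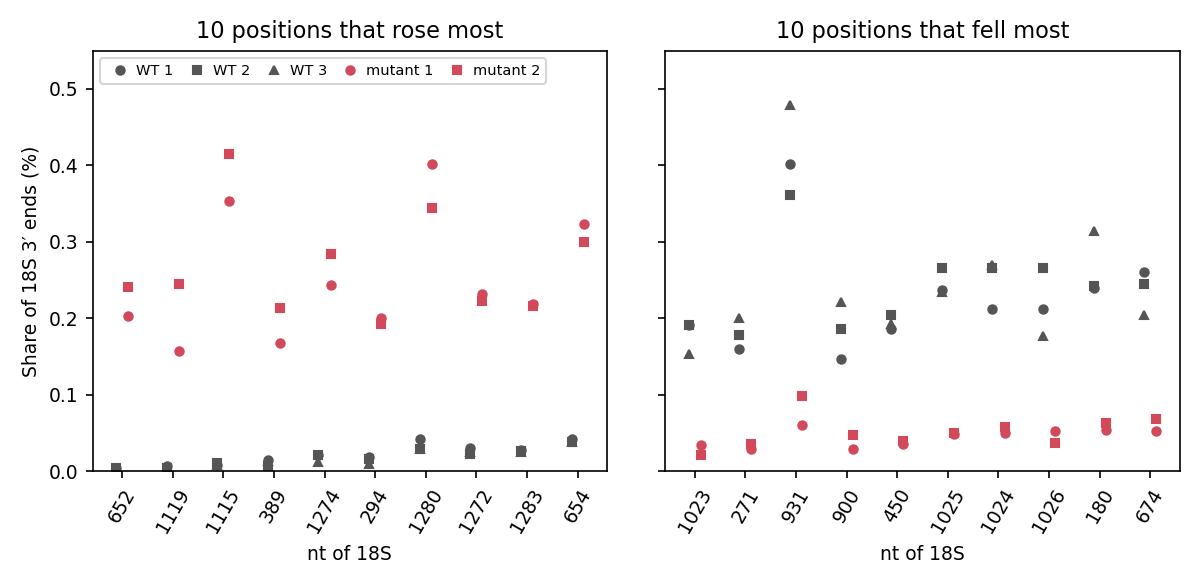
Share of 18S 3′ ends (vertical axis, percent) at the 10 positions that rose most (left) and the 10 that fell most (right), by position in nt of 18S, 1 point per library, grey for WT and red for the mutant. On the left all WT points lie at or below 0.0419% and on the right all mutant points lie at or below 0.0987%. No WT and mutant points of a position overlap, because positions were picked for this.

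The largest fall was at nt 1023, an A, with 182, 169 and 141 counts in WT, against 157 and 15 in the mutant. These are shares of 0.191%, 0.192% and 0.153% against 0.0339% and 0.0206%, a fall of 2.58 ± 0.258 on the log2 scale (adjusted p = 3.19e-09, edgeR). The 3 nucleotides after it fell as well, with log2 fold changes of -2.24 ± 0.242 at nt 1024 (U), -2.34 ± 0.237 at nt 1025 (A) and -2.21 ± 0.253 at nt 1026 (A). In each of the 4 both mutant libraries were below all WT libraries, which was a condition of the choice.

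The other positions that fell most were nt 271 (A, -2.53 ± 0.251), nt 931 (C, -2.46 ± 0.259), nt 900 (A, -2.43 ± 0.272), nt 450 (U, -2.41 ± 0.243), nt 180 (A, -2.21 ± 0.243) and nt 674 (C, -2.01 ± 0.241). Of these nt 931 was also the second highest position of 18S in WT. It held 0.401%, 0.362% and 0.479% in WT, against 0.0598% and 0.0987% in the mutant. The 10 positions that rose were 4 C, 3 G and 3 U, and the 10 that fell were 6 A, 2 C and 2 U.

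The 5 highest positions of WT and the 5 highest of the mutant had none in common. The 5 highest in WT were nt 474 (A), nt 931 (C), nt 1776 (A), nt 245 (U) and nt 855 (A), with mean shares from 0.372% to 0.456%. The first of them, nt 474, held 0.418%, 0.461% and 0.491% in WT, against 0.141% and 0.191% in the mutant and fell by 1.48 ± 0.228 (adjusted p = 2.81e-06, edgeR). The highest position in the mutant was nt 1335, a U, with 0.407%, 0.357% and 0.310% in WT, against 0.499% and 0.422% in the mutant. Its log2 fold change was 0.37 ± 0.212 (adjusted p = 0.124, edgeR), so the position was high in both genotypes and was not called, although the libraries did not overlap.

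The mutant's other highest positions were nt 1549 (C), nt 406 (U), nt 372 (G) and nt 1115. At nt 1549 the shares were 0.132%, 0.133% and 0.114% in WT, against 0.574% and 0.287% in the mutant, and at nt 372 they were 0.173%, 0.189% and 0.118% against 0.542% and 0.296%. Both positions were much higher in mutant library 1 than in library 2, and both mutant libraries lay above WT. The log2 fold change at nt 1549 was 1.79 ± 0.244, and 1.18 without mutant library 1. At nt 406 the rise was 0.94 ± 0.206 (adjusted p = 2.45e-04, edgeR). The call at nt 245 (log2 fold change -0.58 ± 0.229, adjusted p = 0.0262) was lost when WT library 1, WT library 2 or mutant library 2 was left out (adjusted p = 0.106, 0.135 and 0.113).

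One position had no count in any WT library and was called, nt 660, a G. The mutant libraries held 101 and 18 counts there, at least 20.4-fold higher when WT is set to 3 counts in all. It lies in the same stretch as nt 652. With no WT count it passed the filter only through the mutant and could only be called higher. Another 2 positions of 18S without a WT count were not called higher or not tested.

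The base at the RNA 3′ end divided the positions. G was the last base of 8.21%, 8.23% and 7.86% of the 18S ends in WT, against of 23.0% and 22.0% in the mutant, while 25.6% of the nucleotides are G. The mutant thus had 2.78 times the WT share (22.5% ± 0.726 against 8.10% ± 0.206, exact permutation p = 0.2, adjusted p = 0.267 over the 4 bases). A ended 36.1%, 38.3% and 38.8% of the signal in WT, against 23.0% and 27.5% in the mutant, beside 26.8% of the nucleotides. In WT, 3′ ends were thus above the base content at A and far below it at G, and the mutant was near the base content at both.

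C ended 20.4% ± 0.441 in WT and 18.4% ± 1.29 in the mutant, without overlap between the groups. The difference at C was -1.94 percentage points, but -0.816 with the last 5 nt (exact permutation p = 0.6) and -1.02 without mutant library 2. U ended 33.8% ± 0.875 and 33.8% ± 1.12, a difference of -0.0316 percentage points with overlapping groups (exact permutation p = 0.8, also after adjustment).

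**Figure D4:**
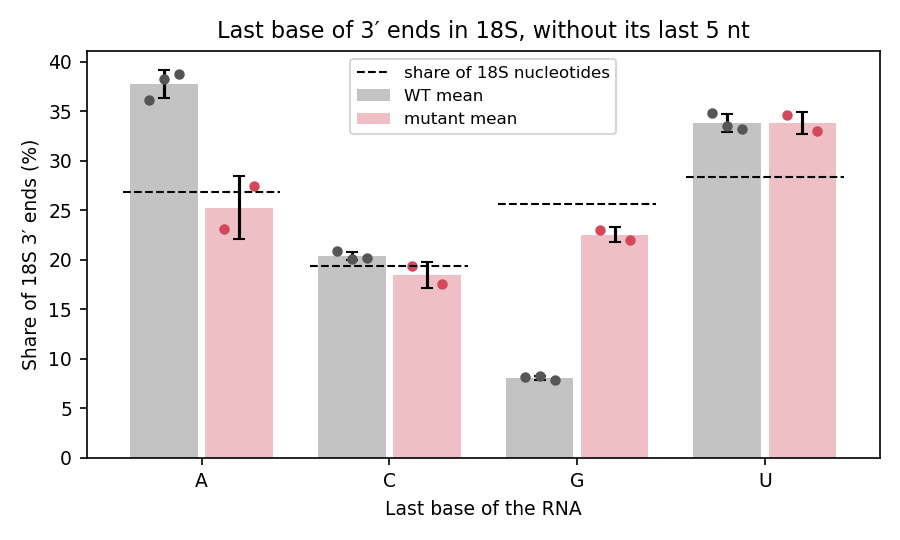
Share of 18S 3′ ends (vertical axis, percent) by the last base of the RNA, without the last 5 nt, with bars for the mean, error bars for the SD, points for the libraries (3 WT in grey, 2 mutant in red) and a dashed line for the share of 18S nucleotides that are this base. The G bar rises from 8.10% to 22.5% and the A bar drops from 37.7% to 25.3%, with the U bars level at 33.8%.

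Counted by position, 310 of 417 tested G positions of 18S rose and 11 fell (74.3% and 2.64%), close to the 74.1% and 2.63% of the G positions of the whole gene. Of 471 tested A positions 61 rose and 269 fell, beside 21.3% and 49.6% over the gene. Of 327 tested C positions 64 rose and 141 fell, beside 22.7% and 42.4%. Of 496 tested U positions 125 rose and 155 fell, beside 27.2% and 33.6%. G positions had a median log2 fold change of 1.56, A positions -0.76, C positions -0.41 and U positions -0.24. Scaled to the 35S total these were 1.86, -0.41, -0.06 and 0.11, which shifts all bases alike and turns the sign at U. Of the 84 untested positions 42 were G. Tested G positions with few WT counts, such as nt 652 and nt 1119, passed the filter only through the mutant. They could hardly have been called lower, which favours rises in the count at G.

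The bases on either side of the 3′ end differed less. The nucleotide to be added next was G for 28.0% ± 0.5997 of the 18S ends in WT and 35.04% ± 2.65 in the mutant, and U for 22.4% ± 0.254 and 16.5% ± 1.16. The nucleotide before the last one was A for 31.8% ± 0.771 in WT and 24.2% ± 0.317 in the mutant, G for 23.6% ± 0.119 and 28.3% ± 0.988, and C for 18.2% ± 0.534 and 22.1% ± 0.924. In each of these the groups did not overlap.

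The 8 nt that end at the position, about the length of RNA paired to the template, were compared for their content of G and C. Positions with at most 2 G or C among these 8 nt held 29.4%, 30.8% and 31.4% of the 18S ends in WT, against 18.6% and 19.2% in the mutant. Positions with 6 to 8 held 6.53%, 6.16% and 5.65% in WT, against 13.7% and 13.0% in the mutant. The libraries of the genotypes were apart at both extremes, and these shares were not tested.

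The median log2 fold change went up with each step of this content, from -0.74 at 0 to 2 over -0.28, 0.18 and 0.76 at 3, 4 and 5 to 1.43 at 6 to 8. The last base is itself one of the 8 nt. Among positions that are not G the medians were -0.85, -0.51, -0.23, 0.21 and 0.73 in the same order. With the 35S total all of these shift upward, which turns the sign at 3 (0.09) and at 4 among positions that are not G (0.12). Of the 106 tested positions that are not G and have 6 to 8 G or C, 56 rose and 24 fell (52.8% and 22.6%, beside 49.53% and 18.2% over the gene). Of the 353 with at most 2, 22 rose and 226 fell (6.23% and 64.0%, beside 11.2% and 55.4%). Of the 10 positions that rose most, 8 had 5 or more G or C among their last 8 nt and none had 2 or fewer, and of the 10 that fell most, none had 5 or more and 4 had 2 or fewer. Among all 1795 positions 27.4% had 5 or more and 23.1% had 2 or fewer. These counts describe positions that were picked by their change, and those that rose most met the minimum share through the mutant.

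Just before the mature 3′ end, a stretch that was nearly empty in WT was filled in the mutant. The 14 nt from nt 1782 to 1795 held 106, 116 and 83 ends in the WT libraries, against 4502 and 509 in the mutant libraries, which are shares of 0.111%, 0.132% and 0.0901% against 0.972% and 0.698%. The mutant mean was 7.53 times that of WT (0.835% ± 0.194 against 0.111% ± 0.0207). The stretch was chosen after its values were seen and has no test as a whole. Of its 14 positions 11 passed the filter, of which 10 rose and none fell, beside 36.9% and 31.6% of the tested positions of the gene. Positions with few WT counts, such as nt 1783 with 6 in each WT library, passed the filter only through the mutant. They could hardly have been called lower.

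The tallest positions in it were nt 1787, a C, with 45, 48 and 21 counts in WT, against 1366 and 109 in the mutant, and nt 1785, a U, with 14, 18 and 15 against 888 and 108. They rose by 2.46 ± 0.287 and 3.33 ± 0.257 (adjusted p = 4.20e-08 and 3.04e-11, edgeR). At nt 1792, a G, WT held 1 count in all, in library 3, and the mutant 414 and 53. It rose by 7.56 ± 0.537 (adjusted p = 7.86e-12, edgeR). With the libraries of a genotype pooled the ratio was 240.3 (95% counting interval 42.9 to 9511, which leaves out the spread between libraries). At nt 1789, also a G, no WT library had a count and the mutant had 35 and 5. This was at least 6.86-fold higher when WT is set to 3 counts in all, as at nt 660, and was not tested by edgeR. Mutant library 1 lay above library 2 in the stretch as a whole, and both lay above all WT libraries.

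**Figure D5:**
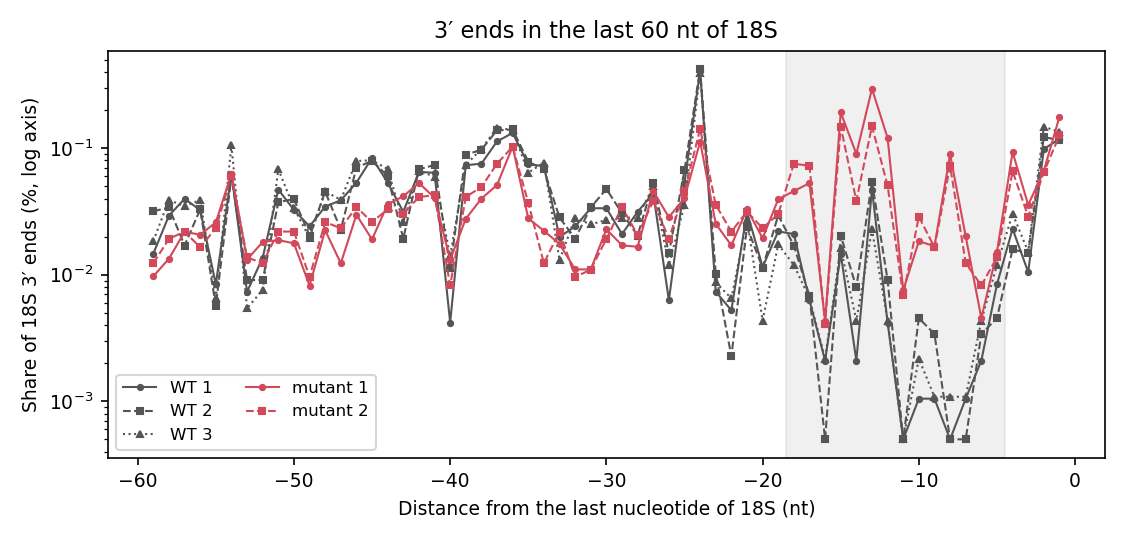
Share of 18S 3′ ends (log axis, percent) in the last 60 nt of 18S by distance from the last nucleotide, 1 line per library, grey for WT and red for the mutant, with the last nucleotide itself left out and values under 0.0005% drawn at 0.0005%. In the shaded 14 nt the summed mutant shares are 0.972% and 0.698% and the WT shares 0.0901% to 0.132%, while farther from the end the lines of the genotypes cross.

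The region before the end was also divided into bins of 10 nt. In the 10 nt before the last 5 nt the mutant held 0.538% ± 0.198 and WT 0.0692% ± 0.0172, 7.77 times as much. In the next bins away from the end the ratio was 1.08, 0.666, 0.606, 0.555 and 1.12, with no steady trend. The bin at 1.08, nt 1776 to 1785, mixed changes in both directions, so these ratios do not mark where the excess ends. It holds the first nucleotides of the stretch, and also nt 1776, which had 0.408% in WT and 0.128% in the mutant. In 25S, the other large rRNA, the 10 nt before the last 5 nt held 0.151% ± 0.0110 of the 25S ends in the mutant and 0.221% ± 0.0229 in WT, a ratio of 0.686. The difference between 18S and 25S here was noticed in the data and was not tested.

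The share at G was also taken in 25S. Without their last 5 nt, G ended 11.5% ± 0.961 of the 25S signal in WT and 25.6% ± 1.58 in the mutant. The share at G in 18S minus that in 25S was -3.44, -4.13 and -2.60 percentage points in WT, against -3.68 and -2.47 in the mutant. This gap differed between the genotypes by 0.317 percentage points, with overlapping groups (exact permutation p = 0.8). The sign of that difference changed when WT library 2 (-0.0535) or mutant library 2 (-0.290) was left out.

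Unevenness was compared after thinning each library to 72921 ends in 18S without its last 5 nt. The Gini coefficient, which is 0 for an even profile, was 0.521, 0.523 and 0.513 in WT, against 0.481 and 0.455 in the mutant, without overlap (exact permutation p = 0.2, adjusted p = 0.3 over 3 measures). The number of positions with no end was 20.35, 20.45 and 17.15 in WT, against 4.95 and 6 in the mutant, as means over 20 draws. The 90 highest positions held 21.8% ± 0.405 of the ends in WT and 20.8% ± 1.45 in the mutant, with overlap (exact permutation p = 0.4).

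Pause sites were called in the thinned libraries as positions with at least 10 ends more than 3 SD above the mean of their flanks of 100 nt. There were 38.05, 38.3 and 33.2 sites in WT, against 39.35 and 47 in the mutant, as means over the draws. With a threshold of 2 SD the mutant had 4.95 fewer sites than WT in place of 6.66 more, so no direction is given. In all 3 WT libraries 22 sites were called, and in both mutant libraries 25, with 6 in common, 27.3% of the WT sites and 24.0% of the mutant sites. The WT sites were 12 A, 7 U and 3 C, and none was a G. The mutant sites were 16 U, 7 C, 1 A and 1 G. Of the 6 common sites 5 were U and 1 was C. Among all nucleotides of 18S without the last 5 nt, 26.8% were A, 28.3% U, 19.3% C and 25.6% G. Libraries of one genotype did not share all their sites either, with means of 36.5 per WT library and 43.2 per mutant library. A common site also had to be called in all 5 libraries, which lowers the overlap, and the overlap was not tested.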

How the data were processed

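For every nucleotide of 1 rDNA repeat the deposited files hold, on each strand, a raw count of RNA 3′ ends, as judged from whole numbers with totals that differ between libraries. SAMtools 1.3.1, BWA 0.6, Trim Galore 0.4.1 and bcl2fastq 2.18.0.012 are named in the submitters' processing notes. How they were set, which genome build was used, and how duplicates and reads shared by the repeats were treated is not given in the sources used here. Bases were read from the files.

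Groups follow the genotype label. Sense counts at the positions and 100 nt windows of the 35S gene were tested with edgeR 4.0.16 in R 4.3.3 (quasi-likelihood test, filterByExpr, Benjamini-Hochberg threshold 0.05), with the 18S count without its last 5 nt as library size, so that fold changes are those of shares of 18S. The approximate SE is the absolute log2 fold change over the root of F. For shares, exact permutation tests were used, two-sided (SciPy 1.17.1, Python 3.11.15; with 1 library in a group the splits were listed directly). The edgeR test of positions and the calling of pause sites were checked on simulated data. In the simulation for edgeR far fewer positions changed than were called here. Named positions were the 10 largest rises and 10 largest falls among called positions with a mean share of at least 0.1% and no overlap, the 5 highest per genotype, the last 5 nt, called positions with no WT count, and the 3 windows that rose and the 3 that fell most. Those at nt 1785, 1787, 1789 and 1792 were chosen after their values were seen. Members and lists were chosen with earlier results of these data known. Within a genotype, 18S counts varied beyond sampling noise (chi-square over its degrees of freedom 1.34 to 2.08 in WT and 4.08 in the mutant). Other settings tried were size factors and the test of DESeq2 1.42.0, TMM, the 35S total, no filter, other treatments of the mature end, counts capped at the 99th percentile, other pause definitions and leaving out each library.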

Additional observations from a re-analysis of the deposited data

Results flagged for a closer look

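Antisense 3′ ends over 18S were few, and relative to all sense ends of 18S they were higher in both mutant libraries than in any WT library. WT had 89, 45 and 67 antisense ends and the mutant 469 and 67. Relative to the sense count these are 0.0859%, 0.0468% and 0.0663% for WT, against 0.0975% and 0.0890% for the mutant. The mutant mean was 0.0933% ± 0.00605 (SD, n = 2) and the WT mean 0.0663% ± 0.0195 (SD, n = 3), with an exact permutation p of 0.2, the smallest this design allows. This separation depended on the mature 3′ end in the sense count. Without the last 5 nt, a setting chosen after seeing the data, the values were 0.0933%, 0.0510% and 0.0727% for WT, against 0.101% and 0.0919% for the mutant, and the groups overlapped (exact permutation p = 0.4). The result drew attention because the antisense strand is outside the measured comparison and its level by the first measure was above that of WT.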

How the results depend on the processing

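Calls depended most on the scaling. Scaled to the 35S total, 384 positions of 18S fell in place of 578, and 9 windows were higher and 2 lower in place of 5 and 8. The median position of the gene then lay at 0.48 in place of 0.10. In windows of 50 nt, 11 of 36 rose and 14 fell. With each library left out, 493 to 591 positions rose and 430 to 625 fell, and 5 windows rose and 6 to 8 fell. With the replicate number as a block the counts were 543 and 555 for positions and 5 and 6 for windows. The numbers match only 2 libraries of each genotype and were not taken as pairs. The deviations of the matched libraries in 18S gave r = 0.0650 and 0.0222. These values cannot decide whether the libraries are pairs, since the deviations of the 2 mutant libraries mirror each other. The named window from nt 1701 went from -0.84 to 0.00341 (adjusted p = 0.968, edgeR) without its last 5 nt, which left 7 windows that fell. The other named positions and windows kept their direction under the alternatives run, which left out nt 1785, 1787, 1789 and 1792. Calls were also lost at nt 245 (35S total, 18S total with the last 5 nt, and 3 of the libraries left out) and at the window from nt 1001 (35S total), and gained at nt 1335 and nt 1799 (35S total, and mutant library 2 left out).

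Some differences changed sign under another setting, and not only small ones. For U it was 1.61 percentage points with the last 5 nt, 0.00302 without the last 10 nt, and -0.822 to 0.759 with a library left out. C gave 3.92 and 1.58 when the base 1 nt before or after was read. The last of the 4 parts of 450 nt gave -0.603 with the last 5 nt, in place of 3.63. The gap in G between 18S and 25S gave -0.353 with capped counts and -0.290 to 0.924 with a library left out. The 18S share of the gene gave -0.368 without the mature ends and -0.966 with capped counts, in place of 4.33. The share of the 90 highest positions gave -2.04 to 0.0133 with a library left out. Pause sites gave -4.95 at 2 SD, in place of 6.66. Shares with 1 mutant library left are compared with no spread of their own. The depth limits statements on WT positions with few counts, above all at G.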

Other observations

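Positions with the same last base were also counted by their neighbours, with the share over the same kind of position in the whole 35S gene beside each. Only some kinds of position are given here, none of them with U as the last base, and they do not stand for the rest. Of 106 tested G positions of 18S that follow an A, 58 rose and 8 fell (54.7% and 7.55%, beside 63.5% and 6.05% over the gene). Of 71 that follow a C, 63 rose and 1 fell (88.7% and 1.41%, beside 83.8% and 0.752%), and of 130 that follow a G, 106 rose and 2 fell (81.5% and 1.54%, beside 82.96% and 2.02%). Of 146 tested A positions that follow an A, 9 rose and 99 fell (6.16% and 67.8%, beside 16.9% and 53.98%), and of 120 that follow a G, 31 rose and 43 fell (25.8% and 35.8%, beside 33.8% and 32.1%). Among C positions before a U, 6 of 93 tested rose and 65 fell (6.45% and 69.9%, beside 8.19% and 67.6%), while of 74 before a G, 23 rose and 13 fell (31.1% and 17.6%, beside 34.2% and 24.2%). The counts were not tested against the gene or against each other, and the gene includes 18S. Here too, G positions with few WT counts passed the filter only through the mutant, which favours rises.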
